A study of Homo sapiens with 91 samples.

Results

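The core replication-dependent histone genes are the genes of the HIST1 and HIST2 clusters that encode the histones H2A, H2B, H3 and H4. A list of 50 such genes, linker histones left out, was followed through the exonic barcodes of 1 clone of HEK293T cells. By Ensembl identifier 19 of the 50 were matched among the 57820 identifiers of the files, and 18 of these 19 had at least 1 exonic barcode. HIST1H2AD was listed at 0 in every library.

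The libraries were made with MATQ-seq, which copies total RNA from the input of 1 cell and labels every copied molecule with a random barcode, whose number counts molecules before amplification. HEK293T is a transformed line of human embryonic kidney cells, grown here in medium with serum and without any treatment that the labels name, and all libraries analysed came from a single clone of it. The 2 groups were 38 single cells of this clone and 10 pool-and-split averaged samples of it, here called aliquots, in which pooled material was divided to the input of 1 cell. Of the 91 samples of the series, 43 were not analysed here.

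Core histone genes stand in clusters and have no introns in their main transcripts. Their mRNAs are made in bulk while DNA is replicated, so that new DNA can be packed into nucleosomes, and they are degraded when replication stops. Most of these mRNAs end in a stem-loop in place of a poly(A) tail, and the stem-loop is bound by the protein SLBP. Some genes of the clusters also give polyadenylated mRNAs. A method that captures total RNA reads both kinds.

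The stem-loop is shown for genes of 3 families, H2A, H2B and H4, in which the pattern given next was found. In the transcripts of GENCODE release 29 the stem-loop pattern of 16 bases (GGC, any base, CTT, any base, T, any base, AG, any base, GCC), searched on the transcript strand, occurred in 69 of 206694 transcripts, which belonged to 48 of 58721 genes. Among the 19 matched genes 11 had it. The other 8 did not have these letters in their annotated transcripts, and nothing is drawn from that. Not every window below lies at a transcript end: 1761 bases follow the pattern in the HIST1H2AG transcript used, and 1729 in that of HIST2H2BE. In the windows that follow, read from the transcripts 5′ to 3′, the capitals mark the 16 bases.
HIST2H2BE: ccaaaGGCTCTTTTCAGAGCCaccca
HIST1H2BL: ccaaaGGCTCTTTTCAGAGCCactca
HIST1H2BD: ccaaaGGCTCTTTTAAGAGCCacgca
HIST1H2AG: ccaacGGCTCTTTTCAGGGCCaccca
HIST1H4H: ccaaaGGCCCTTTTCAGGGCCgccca
HIST1H4J: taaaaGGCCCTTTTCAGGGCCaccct

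The form of HIST2H2BE and HIST1H2BL was shared by 6 of the 11 genes: HIST1H2AC, HIST1H2AI, HIST1H2BL, HIST1H2BN, HIST2H2BE and HIST2H2BF. The form of HIST1H2BD was also that of HIST1H2BC, and HIST1H4H and HIST1H4J shared another.

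Promoters of 16 of the 19 genes were found in the RefSeq table of build GRCh38.p14, which is not the build on which the counts were made. A TATA box (TATAAA, either strand) stood in the 250 bases before the start of 11 of the 16, against 11.1% of 27305 promoters. A CCAAT box (CCAAT or ATTGG) stood in 14 of 16, against 33% of all promoters, and in neither of the 2 H4 promoters. The octamer ATTTGCAT, on either strand, stood in 10 of 16, against 1.66% of all promoters. HIST1H2AD and HIST1H3D have the same window in the table, so the 16 promoters are 15 different windows. Of these 11 hold the TATA box, 13 the CCAAT box and 9 the octamer. The genes HIST2H2AC and HIST2H2BE start back to back and share part of their upstream DNA, as do HIST1H2AG with HIST1H2BJ and HIST1H2AI with HIST1H2BL. A site in shared DNA is counted for both genes, so the counts above are of windows and not of separate sites. The octamer at -197 of HIST2H2AC, outside the 150 bases given below, is that at -46 of HIST2H2BE. The octamer at -208 of HIST1H2AG is that at -47 of HIST1H2BJ. The 150 bases before the start are given for the pair on chromosome 1, for the H2B gene of a chromosome 6 pair and for an H4 gene, with these boxes in capitals. A match of letters is a description and not a measured site. The windows are chr1:149886768-149886917 on the plus strand, chr1:149886683-149886832 on the minus strand, chr6:27132796-27132945 on the minus strand and chr6:27823942-27824091 on the plus strand, in the order of the lines.
HIST2H2AC: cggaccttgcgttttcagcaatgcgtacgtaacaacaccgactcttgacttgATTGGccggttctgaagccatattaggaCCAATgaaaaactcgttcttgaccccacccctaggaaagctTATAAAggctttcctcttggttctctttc
HIST2H2BE: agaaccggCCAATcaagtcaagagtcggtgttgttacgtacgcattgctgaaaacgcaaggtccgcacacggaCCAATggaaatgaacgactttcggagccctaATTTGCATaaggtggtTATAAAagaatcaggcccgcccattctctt
HIST1H2BJ: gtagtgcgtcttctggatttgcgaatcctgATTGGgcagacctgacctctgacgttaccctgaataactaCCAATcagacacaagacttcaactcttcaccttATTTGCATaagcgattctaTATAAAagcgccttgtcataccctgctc
HIST1H4J: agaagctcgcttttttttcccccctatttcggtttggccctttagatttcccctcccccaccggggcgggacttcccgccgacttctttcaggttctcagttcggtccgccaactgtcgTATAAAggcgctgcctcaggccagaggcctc

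The list held 13 H2A, 16 H2B, 10 H3 and 11 H4 genes. With barcodes there were 5 H2A, 8 H2B, 2 H3 and 3 H4 genes. Though the files may hold them under other identifiers, the 31 genes without a matched identifier were not analysed here. They were HIST1H2AB, AE, AH, AJ, AK, AL and AM among the H2A genes, HIST1H2BB, BE, BF, BG, BH, BI, BM and BO among the H2B genes, HIST1H3A, B, C, E, F, G, H and I among the H3 genes, and HIST1H4A, B, D, E, F, I, K and L among the H4 genes. Values for H3 therefore rest on 2 genes. Histone genes of a family are nearly identical in their coding parts, and the sources used here do not say how reads that fit several copies were treated, so the level of any 1 gene is uncertain, while sums over a family depend less on how reads were divided between its counted genes. Levels below are CPM, exonic barcodes per 1000000 after library scaling, and levels of different genes are not compared because the lengths of the counted gene models are not given.

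A single cell held 128322 to 326476 exonic barcodes (mean 231131 ± 51823, SD, n = 38) and an aliquot 152542 to 275215 (mean 188547 ± 41723, SD, n = 10). Introns took 32.7% to 66.8% of all barcodes in cells and 54.9% to 60.4% in aliquots. The 3 HEK293T markers matched (IRS4, NEFM and INA) summed to 287 to 1680 CPM in cells and 1015 to 1467 CPM in aliquots. The 6 markers of MCF10A, the other line of the study, summed to at most 50.4 CPM in a cell and 7.03 CPM in an aliquot, with KRT6A at 0, and 5 markers of blood and fibroblast cells to at most 52.4 and 26.3 CPM, with LUM at 0. The labels name no separate cultures, so each group counts as 1 sample for means, and tests speak only of the spread between these libraries.

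Single cells of the clone differed widely in core histone mRNA, and most of them lay below the pooled material. Summed over the 18 genes, the level was 1517 CPM in the lowest cell, 4407 CPM in the median cell and 12268 CPM in the highest cell, against 6043, 8648 and 9640 CPM in the lowest, median and highest aliquot. The groups overlapped: 24 of 38 cells lay below every aliquot, 4 above every aliquot and 10 within their range. The mean was 5498 ± 3244 CPM in cells (SD, n = 38) and 8229 ± 1162 CPM in aliquots (SD, n = 10), a log2 ratio of -0.58, beside a median log2 ratio of 0.02 over all 9992 tested genes. The 18 genes took a mean of 0.549% of exonic barcodes in cells and 0.826% in aliquots, which leaves out the 31 genes not matched. No test was made on these means. In an aliquot, a level set by more cells of high content cannot be told apart from one set by more RNA per cell.

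The cells did not fall into 2 clear groups. In order of summed level, no cell was more than 1.17-fold above the next lower one. There were 11 cells under 3000 CPM, 13 from 3000 to 6000 CPM, 8 from 6000 to 9000 CPM and 6 at 9000 CPM or more. The coefficient of variation (SD over mean) of the summed level was 59.0% in cells and 14.1% in aliquots. Over the 38 cells the summed level had a Spearman rho of -0.34 with the exonic barcodes of the library, 0.11 with its intronic share and -0.24 with the cell number. Over the 10 aliquots it had a rho of -0.88 with the exonic barcodes. The part of depth in these levels was not tested by the correlations. With every library thinned to 128322 barcodes the log2 ratio of means was again -0.58. Random thinning keeps the expected composition of a library, so it cannot show whether depth goes with composition.

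**Figure D1:**
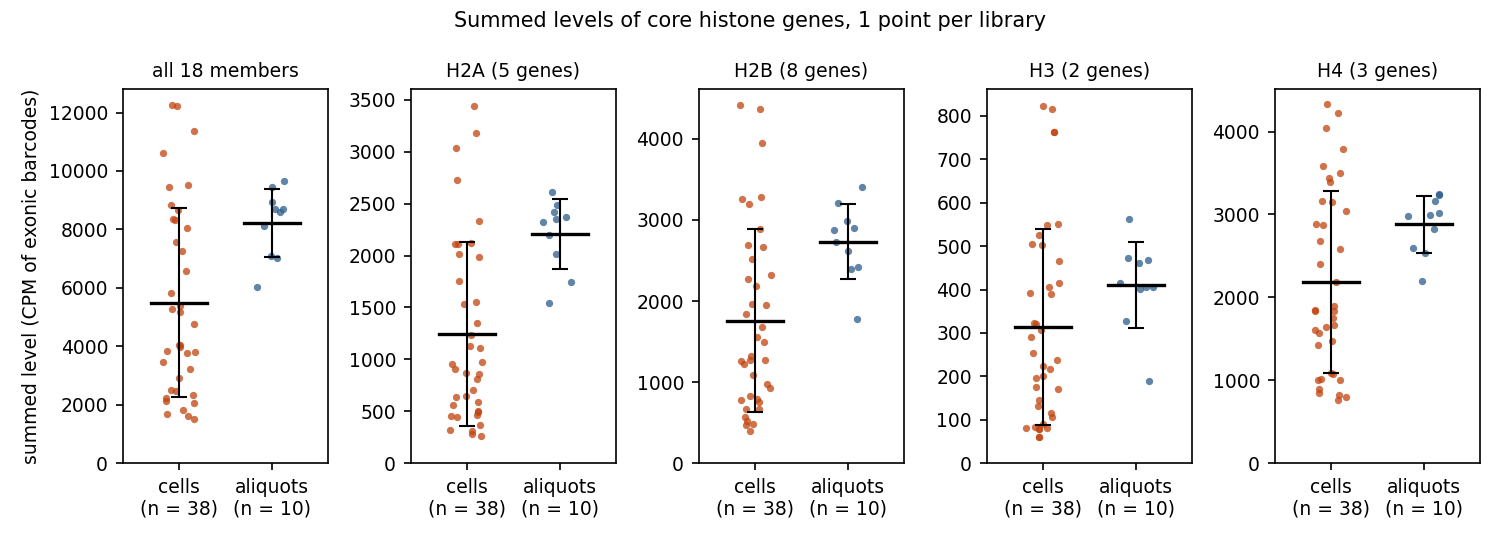
Summed level in CPM of exonic barcodes (y axis) of all 18 core histone genes and of each family, in 38 single cells (left in each panel) and 10 aliquots (right); each point is a library, the bar is the mean and the whiskers 1 SD. Cells spread from 1517 to 12268 CPM in the panel of all genes, and aliquots from 6043 to 9640 CPM.

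The 5 cells with the highest sums were cells 5, 16, 4, 10 and 34, at 12268, 12213, 11382, 10623 and 9532 CPM. In cell 5, 16 of the 18 genes lay above every aliquot, in cell 16, 15, and in cell 4, 13. Cells 10 and 34 had the 2 highest H4 sums, 4335 and 4229 CPM, but only 5 of the 18 genes in each lay above every aliquot. In cell 10 these were HIST1H3D, HIST1H4C, HIST1H4J, HIST2H2AB and HIST2H2BF, and in cell 34 HIST1H4C, HIST1H4J, HIST2H2AB, HIST2H2AC and HIST2H2BE. The 5 lowest cells were cells 30, 14, 29, 33 and 2, at 1517, 1626, 1692, 1811 and 2060 CPM. In each of these 5 cells all 18 genes lay below every aliquot. The cells were ranked by the sum of these same genes, and the aliquots, at 6043 to 9640 CPM, lie above the median cell at 4407 CPM. The sum of cell 34 lies within the aliquot range. The counts at the low end and at the high end therefore cannot be compared.

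**Figure D2:**
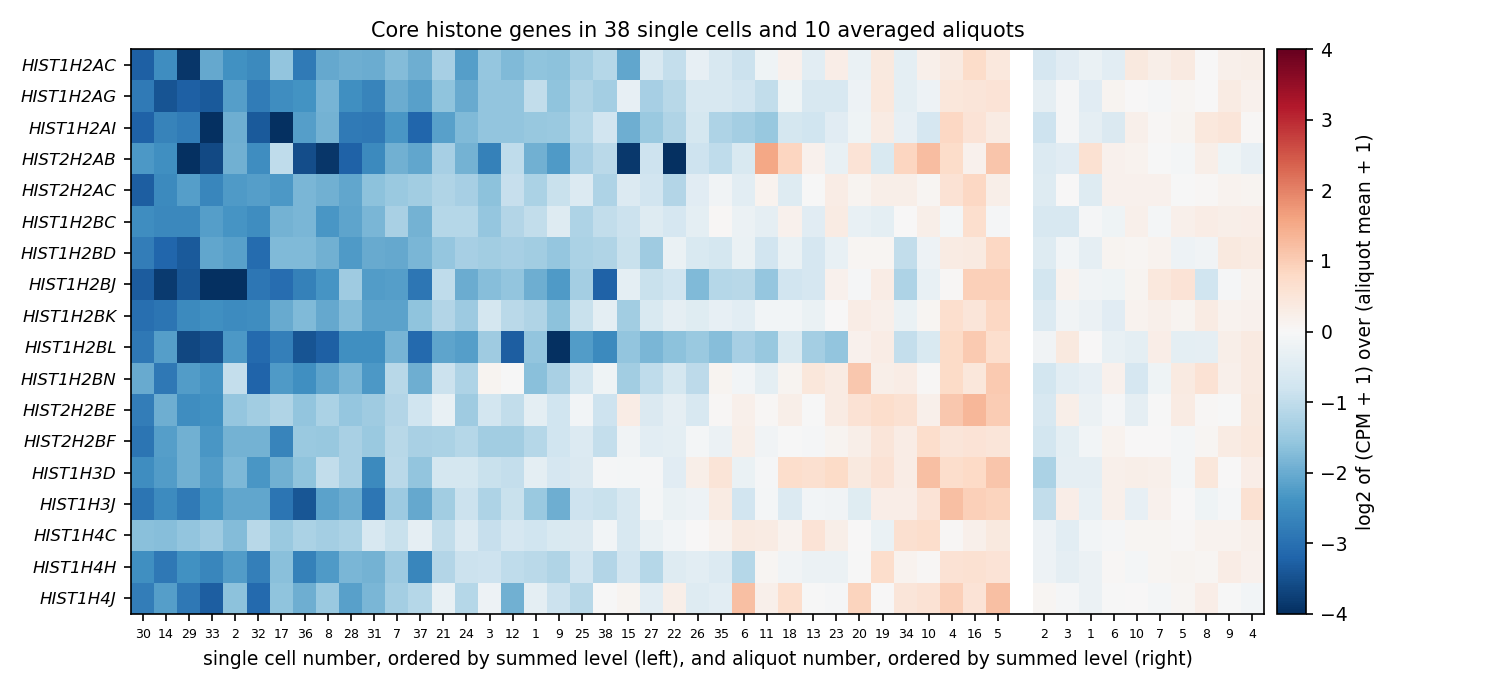
Each row is a core histone gene and each column a library, with the 38 cells on the left and the 10 aliquots on the right, both ordered by summed level from low to high. Colour gives the log2 of (CPM + 1) over (aliquot mean + 1), blue for lower and red for higher; the 5 cells at the far left are blue in all 18 rows.

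H2A genes encode the histone that pairs with H2B at the outside of the nucleosome. Summed over 5 genes, H2A was 263 CPM in the lowest cell, 930 CPM in the median cell and 3445 CPM in the highest cell, against 1539, 2337 and 2612 CPM in the lowest, median and highest aliquot. HIST2H2AC stood at 70.3, 337 and 1229 CPM in the lowest, median and highest cell, and at 487, 729 and 790 CPM in aliquots. HIST2H2AC lay below every aliquot in 24 cells and above every aliquot in 6. HIST1H2AG stood at 68.3, 296 and 1102 CPM in cells and at 549, 765 and 952 CPM in aliquots. The groups of HIST1H2AG overlapped in only 5 cells, with 29 cells below and 4 above the aliquots. HIST1H2AC stood at 29.8, 164 and 753 CPM in cells and at 281, 487 and 587 CPM in aliquots, with 24 cells below and 3 above. HIST2H2AB stood at 4.25, 49 and 370 CPM in cells and at 84.3, 121 and 192 CPM in aliquots. Only 4 cells lay within the aliquot range of HIST2H2AB, and its lowest cell held 1 barcode. HIST1H2AI ranged from 5.59 to 324 CPM in cells and from 102 to 256 CPM in aliquots, with 10 cells within the aliquot range.

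H2B genes were the largest family, with 8 genes. Their sum was 398 CPM in the lowest cell, 1405 CPM in the median cell and 4414 CPM in the highest cell, against 1781, 2800 and 3412 CPM in the lowest, median and highest aliquot. HIST2H2BF stood at 88.7, 369 and 1085 CPM in cells and at 401, 681 and 897 CPM in aliquots, with 20 cells below and 5 above the aliquots. HIST1H2BK stood at 61.2, 255 and 887 CPM in cells and at 341, 553 and 627 CPM in aliquots, with 22 cells below and 3 above. In both genes the range of the aliquots lay inside that of the cells, and the median aliquot above the median cell. HIST2H2BE, also known as a source of polyadenylated mRNA, stood at 48.9, 220 and 850 CPM in cells and at 214, 334 and 445 CPM in aliquots, with 18 cells below and 6 above. HIST1H2BC stood at 71.4, 218 and 688 CPM in cells and at 281, 458 and 536 CPM in aliquots, with 22 cells below and 2 above. These 2 genes overlapped more, with 14 cells of each within the range of the aliquots. HIST1H2BL stood at 5.03, 32 and 244 CPM in cells and at 89.4, 112 and 156 CPM in aliquots. It had the fewest cells within the aliquot range of the 18 genes, 2, with 33 cells below and 3 above. HIST1H2BN stood at 17, 86.2 and 348 CPM in cells and at 98.4, 165 and 245 CPM in aliquots, with 21 cells below and 3 above. HIST1H2BD and HIST1H2BJ ranged from 38.3 to 714 CPM and from 3.12 to 195 CPM in cells, and from 281 to 525 CPM and from 57.0 to 149 CPM in aliquots.

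H3 and H4 form the tetramer at the centre of the nucleosome. The H3 gene HIST1H3D stood at 32.7, 136 and 447 CPM in the lowest, median and highest cell and at 80.8, 210 and 268 CPM in aliquots, with 18 cells within the aliquot range. HIST1H3J stood at 19.4, 118 and 497 CPM in cells and at 109, 215 and 327 CPM in aliquots, also with 18 cells within it. The H3 genes thus overlapped most between cells and aliquots. The H4 gene HIST1H4C stood at 639, 1426 and 3457 CPM in cells and at 1561, 2204 and 2430 CPM in aliquots, with 20 cells below and 8 above. HIST1H4H stood at 77.6, 278 and 939 CPM in cells and at 448, 598 and 702 CPM in aliquots, with 27 cells below and 4 above. HIST1H4J stood at 18.7, 143 and 442 CPM in cells and at 164, 190 and 228 CPM in aliquots, with 22 cells below and 8 above. The aliquots of HIST1H4J were the closest together of all 18 genes relative to their mean, with a coefficient of variation of 9.05%. Counting error alone at their mean number of barcodes would give 16.6%. This closeness therefore cannot be read as a trait of the gene.

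The design asks whether a gene varies between the cells of the clone by more than the method scatters in aliquots. This was tested per gene by a negative-binomial likelihood-ratio test of separate dispersions for cells and aliquots against a shared one. The dispersion is the variance beyond counting error relative to the squared mean. Larger spread in cells was called for 6 of the 18 core histone genes at an adjusted p under 0.05, against 0.21% of the 9992 genes tested, and larger spread in aliquots for 0 of 18, against 0.01%. By family these were 3 of 5 H2A genes, 1 of 8 H2B genes, 0 of 2 H3 genes and 2 of 3 H4 genes. At an unadjusted p under 0.05 the spread was larger in cells for 18 of 18 genes and larger in aliquots for 0, against 6.85% and 2.37% of all tested genes. The genes were proposed with earlier results of these data known, in which this pattern was already seen, so the counts are not independent support for it.

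HIST1H4J had the largest contrast, with a fitted dispersion of 0.571 in cells and 0.001 in aliquots. The value in aliquots is the lower limit of the search, so the log2 ratio of 9.16 has no firm size (adjusted p = 0.00226). The 10 aliquots of this gene scattered by less than counting error alone would give, 9.05% against 16.6%. HIST1H2BL followed with 0.751 in cells and 0.00868 in aliquots (log2 ratio 6.44, adjusted p = 0.0352). HIST1H4H had 0.462 in cells and 0.0113 in aliquots (log2 ratio 5.35, adjusted p = 0.013). HIST1H2AG had a log2 ratio of 4.80 (adjusted p = 0.0184), HIST2H2AB one of 5.13 (adjusted p = 0.029) and HIST2H2AC one of 4.15 (adjusted p = 0.0493). The smallest ratios were those of HIST1H3D at 2.59 (adjusted p = 0.337), HIST1H2BN at 2.91 (adjusted p = 0.288) and HIST1H2BC at 3.01 (adjusted p = 0.222). The fitted dispersion was larger in cells for 18 of 18 genes, against 59.6% of all tested genes. The median log2 ratio was 3.86 over the 18 genes and 0.41 over all tested genes.

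The number of called genes depended on single libraries. It was 5 without aliquot 1, 3 without aliquot 4 or 9, 2 without aliquot 5, 7 or 8, and 1 without aliquot 6 or 10. It was 4 without cell 16 and 5 without each of 10 other cells (4, 14, 17, 19, 28, 29, 30, 32, 33 and 36). The call of HIST2H2AC was lost without 19 of the 48 libraries, that of HIST1H2BL without 10, HIST2H2AB without 7, HIST1H2AG without 5 and HIST1H4H without 2. Under 11 other settings HIST2H2AC lost its call in 8, HIST1H2BL in 6 and the other 4 in 3 each, which were the limma tests. HIST1H4J stayed called without each of the 48 libraries in turn, with an adjusted p from 0.00201 to 0.0128, and from 0.00117 to 0.239 under 11 other settings, the highest by limma. A test by limma of absolute deviations of log2 CPM called none of the 18 genes: larger spread in cells was called for 0 of 18, against 0% of all tested genes, and the opposite for 0 of 18, against 0.03%. At an unadjusted p under 0.05 that test had 18 of 18 on the side of the cells, against 3.67% of all tested genes, and 0 on the side of the aliquots, against 3.54%. By exonic reads in place of barcodes 10 of the 18 were called, 5 of them among the 6 above.

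The coefficient of variation makes the same contrast on the CPM scale. It ranged in cells from 48% for HIST1H4C to 114% for HIST1H2BL, and in aliquots from 9.05% for HIST1H4J to 31% for HIST1H2BN. The median over the 18 genes was 72.6% in cells and 21.9% in aliquots, beside 48.9% and 46.9% over all tested genes. Many tested genes are low, where counting error alone gives a large variation in both groups. Among the 4509 other tested genes with a mean between those of the lowest and the highest core histone gene, 59.1 and 1768 CPM, the medians were 35.2% in cells and 31.4% in aliquots. Of these 4509 genes 123 had a variation of at least 60% in cells, and of the 18 core histone genes 17 had. Counting error at the mean number of barcodes would give HIST1H4C a variation of 5.12% in cells and HIST1H2BL one of 30.5%. In aliquots it would give HIST1H4J 16.6% and HIST1H2BL 21.1%, where 9.05% and 22.8% were measured. At least 50% of the cells lay outside the range of the aliquots for 18 of 18 core histone genes, against 5.96% of all tested genes. For each of the 18 more cells lay below the aliquots than above, so this count takes in level as well as spread.

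**Figure D3:**
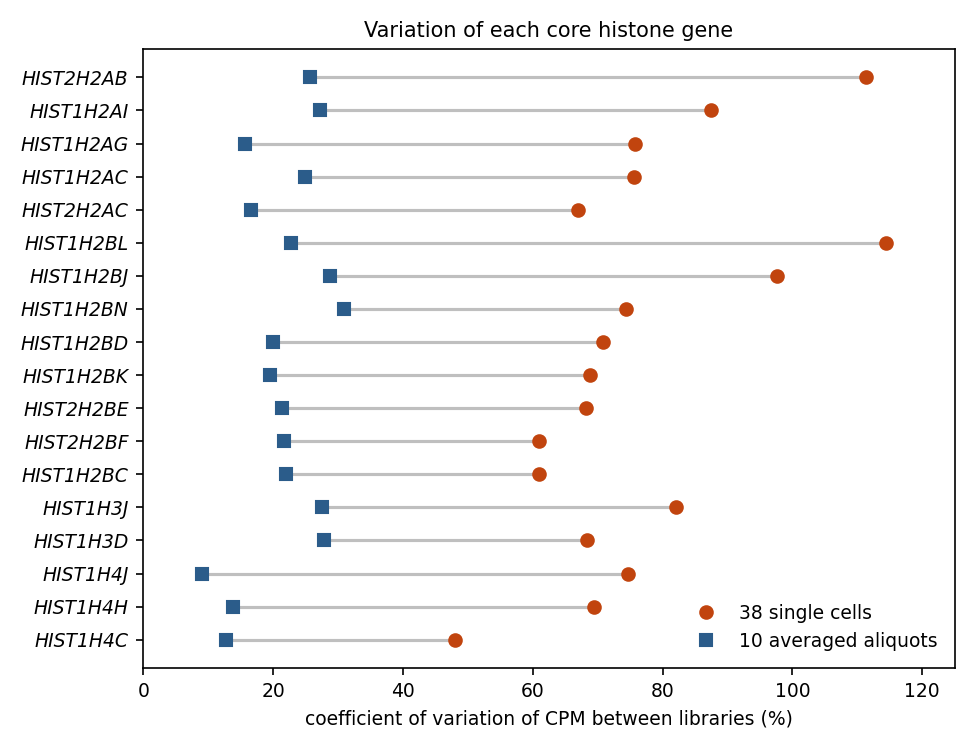
Coefficient of variation of CPM in percent (x axis) of each of the 18 core histone genes, grouped by family, in 38 single cells (circles) and 10 aliquots (squares). Each circle lies right of its square, from 48% to 114% in cells against 9.05% to 31% in aliquots.

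The genes moved together from cell to cell. The Spearman rho of a gene with the summed level of the other 17 ranged from 0.78 for HIST2H2AB to 0.97 for HIST2H2BF over the 38 cells, with a median of 0.94. Over all tested genes the rho with the summed level had a median of -0.02, and 90% of genes lay between -0.31 and 0.29. Over the 10 aliquots the rho with the other 17 ranged from -0.05 for HIST1H4J to 0.92 for HIST1H4C. The genes of a library share its scaling and its depth, so these coefficients are descriptions. The lowest over cells after HIST2H2AB were those of HIST1H2BL at 0.85 and HIST1H2BN at 0.87, and HIST1H2BL is among the genes with the fewest barcodes.

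Pairs within and across families had the same mean coefficient. Of the 153 pairs of genes all 153 had a positive rho over cells, with a mean of 0.86, against 124 pairs over aliquots, with a mean of 0.34. Over cells the mean was 0.86 for 42 pairs within a family and 0.86 for 111 pairs across families. It was 0.86 for 97 pairs in the same cluster, and 0.86 for the 56 pairs that join HIST1 on chromosome 6 to HIST2 on chromosome 1. The lowest pair over cells was HIST1H2BJ with HIST2H2AB, at 0.61, and the highest was HIST2H2AC with HIST2H2BF, at 0.96. The back-to-back pairs whose upstream DNA was shown or named above had a rho of 0.94 for HIST2H2AC with HIST2H2BE, 0.88 for HIST1H2AG with HIST1H2BJ and 0.78 for HIST1H2AI with HIST1H2BL. A first principal component of the scaled log2 levels held 85.9% of the variance of the 18 genes in cells and 52.6% in aliquots, with all 18 genes on the same side in both. The 5 genes also known to give polyadenylated mRNAs (HIST1H2AC, HIST1H2BC, HIST1H2BD, HIST1H2BK and HIST2H2BE) had a rho with the others of 0.92 to 0.97 over cells.

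HIST1H4C followed the others less steeply. On a log2 scale with a pseudocount of 1 CPM, its level over the 38 cells had a slope of 0.64 ± 0.05 (SE) on the sum of the other 17 genes, and the slopes of those 17 genes on the sum without each ranged from 1.00 ± 0.05 for HIST1H2BC to 1.40 ± 0.20 for HIST2H2AB. Its share of core histone barcodes ranged from 18.6% in cell 19 to 47.7% in cell 37, with a mean of 33.4% ± 7.28 in cells (SD, n = 38), against 25.8% ± 2.07 in aliquots (SD, n = 10). The share lay above every aliquot in 26 cells and below every aliquot in 3. It was lower in cells of higher summed level (rho = -0.66 over 38 cells). The share and the sum are made from the same counts. The slopes above are on unlike sums, since those of the other 17 genes are on sums that include HIST1H4C. The part of this in the contrast of slopes was not tested.

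Reads and barcodes did not give the same picture of HIST1H4C. A barcode of HIST1H4C was read 5.02 ± 2.21 times in cells and 4.80 ± 0.53 times in aliquots (SD), and a barcode of the other 17 genes 2.81 ± 0.846 and 3.41 ± 0.269 times. Cells of higher summed level had more reads per barcode of these genes, with a rho of 0.78 for HIST1H4C and 0.88 for the other 17, while the reads per barcode of whole libraries had a rho of -0.11 with it. Counted in reads, the slope of HIST1H4C was 0.80 ± 0.06 (SE) and those of the other genes 0.93 to 1.28. Its share of core histone reads was 45.9% ± 10.4 in cells and 32.8% ± 2.89 in aliquots, with a rho of -0.26 with the summed level by reads. The part of barcode counting in the slope was not tested.

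**Figure D4:**
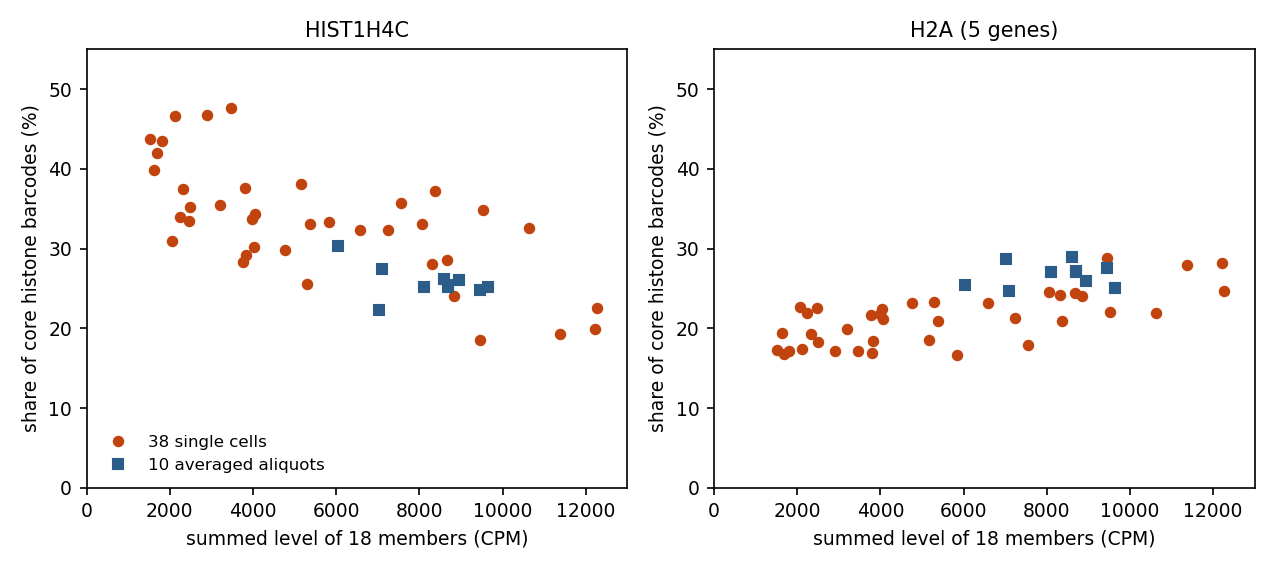
Share of core histone barcodes in percent (y axis) taken by HIST1H4C (left) and by the 5 H2A genes (right) against the summed level of the 18 genes in CPM (x axis), in 38 single cells (circles) and 10 aliquots (squares). Over cells the HIST1H4C share has a rho of -0.66 with the summed level, and the H2A share one of 0.63.

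The families kept their proportions within narrower limits than their levels. H2A took 21.2% ± 3.30 of core histone barcodes in cells (SD, n = 38) and 26.8% ± 1.47 in aliquots (SD, n = 10), and 34 of 38 cells lay below every aliquot. H2B took 31.2% ± 2.95 and 33.1% ± 1.63, and H3 5.31% ± 1.19 and 4.95% ± 0.861. H4 took 42.3% ± 6.16 in cells and 35.2% ± 2.73 in aliquots, with 21 cells above every aliquot. With HIST1H4C left out of the total, H2A took 31.8% ± 2.56 in cells and 36.1% ± 1.6 in aliquots, with 29 cells below every aliquot, and the other 2 H4 genes 13.3% ± 2.00 and 12.7% ± 1.49. The lower H2A share of cells was thus also seen without HIST1H4C. The cluster HIST2 took 22.6% ± 2.78 of core histone barcodes in cells and 22.2% ± 1.40 in aliquots.

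No non-histone gene with a symbol followed the core histone genes closely over the 38 cells. At a rho of at least 0.8 with the summed level stood 38 of the 9992 tested genes. They were 17 of the 18 core histone genes, 8 other histone genes, 13 identifiers without a symbol in the tables used, and 0 of 9577 non-histone genes with a symbol. The 13 were among 148 tested identifiers without a symbol, and the highest rho of these was 0.98. Whether they include any of the 31 core histone genes not matched was not tested. The 8 were the linker histone genes HIST1H1C, HIST1H1D and HIST1H1E and the genes HIST2H2BB, HIST3H2A, HIST3H2BB, HIST4H4 and H2BFS. Linker histones bind the DNA between nucleosomes. HIST1H1C stood at 40.3, 167 and 601 CPM in the lowest, median and highest cell and at 313, 382 and 427 CPM in aliquots (rho = 0.96 with the summed level, adjusted p of spread = 0.00308). HIST1H1D stood at 28, 120 and 992 CPM in cells and at 205, 245 and 360 CPM in aliquots (rho = 0.87, adjusted p of spread = 0.0238). Of 5 linker genes matched 3 were tested. By the dispersion test all 3 were called with larger spread in cells, against 0.21% of all tested genes. By limma 0 of the 3 were called, against 0% of all tested genes with larger spread in cells.

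Among non-histone genes with a symbol the rho with the summed level was highest for SEC23A at 0.55, which encodes a coat protein of vesicles leaving the endoplasmic reticulum. It was followed by DEK, a chromatin protein, and ASAH1, a lysosomal ceramidase, both at 0.54. FBXL12 and SLC4A7 came next at 0.53, the first for a ubiquitin ligase subunit and the second for a bicarbonate transporter, then MED14, a Mediator subunit, and NUP210, a nuclear pore protein, both at 0.51. RB1, the retinoblastoma protein that restrains entry into DNA synthesis, was the eighth at 0.51, with 0, 50.9 and 130 CPM in the lowest, median and highest cell and 28.3, 76.7 and 114 CPM in aliquots. The lowest were ROBO1, a receptor of axon guidance, at -0.62, SENP5, a SUMO protease, at -0.58, ZBTB40, a zinc finger protein, at -0.57 and SAMD4B, an RNA-binding protein, at -0.55. These 12 were picked as the extremes of 9577 genes.

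Histone genes that are also expressed outside DNA synthesis spread over both signs of the coefficient. Of 10 tested genes listed as replication-independent, 5 had a positive rho with the summed level, and the rho of the 10 ran from -0.26 to 0.72. By either test 0 of 10 were called for spread. Of all tested genes 0.21% were called with larger spread in cells by the dispersion test and 0% by limma. By the dispersion test 3 of 10, H1F0, H3F3B and H3F3A, had an unadjusted p under 0.05 with larger spread in cells, against 6.85% of all tested genes. Only H2AFX, which encodes the variant H2A.X marked at DNA breaks, was at 0.5 or more, with 78.7, 184 and 419 CPM in the lowest, median and highest cell, 141, 220 and 276 CPM in aliquots, and a rho of 0.72. It was named after its value was seen. H1F0, a linker histone of resting cells, stood at 18.5, 129 and 600 CPM in cells and at 114, 221 and 263 CPM in aliquots (rho = 0.42, adjusted p of spread = 0.201). H3F3B, which encodes the variant H3.3, stood at 255, 545 and 1017 CPM in cells and at 363, 407 and 519 CPM in aliquots (rho = -0.26, adjusted p = 0.28). The summed level of the 11 matched genes of this list had a coefficient of variation of 17.1% in cells and 6.39% in aliquots.

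No tested gene of the lists of histone mRNA factors and histone chaperones had a rho of 0.5 or more with the summed level. The first list of histone mRNA factors holds genes of the stem-loop and cleavage machinery and of the activator NPAT. It also holds HINFP, ERI1, UPF1, LSM1, COIL, CDK2, CCNE1 and CCNE2, so its values are not those of that machinery alone. By the dispersion test 0 of its 17 tested genes were called in either direction, against 0.21% (cells) and 0.01% (aliquots) of all tested genes. At an unadjusted p under 0.05 the count was 0 in either direction, against 6.85% and 2.37%. By limma 0 were called after adjustment, against 0% and 0.03%. With shares this low, 0 calls among 17 genes do not set the list apart. The rho of the 17 genes with the summed level ran from -0.38 to 0.42. The smallest p were those of CASP8AP2, with a variation of 42.0% in cells and 25.4% in aliquots (adjusted p = 0.623), and of the cleavage factor CPSF3, with 29.1% and 49% (adjusted p = 0.633). SLBP itself had a rho of -0.28 and NPAT one of 0.21, and both were named for their role. Of 10 tested histone chaperones 0 were called by either test, against 0.21% of all tested genes with larger spread in cells by the dispersion test. At an unadjusted p under 0.05 by that test 2 had larger spread in cells, against 6.85% of all tested genes. These 2 were CHAF1B, of the complex that deposits histones behind the fork, with 45.8% in cells and 19.9% in aliquots (adjusted p = 0.32), and RBBP4, which belongs to the same complex, with 36.2% and 15.2% (adjusted p = 0.453).

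Genes of DNA replication and of mitosis were set beside the histone genes because core histone mRNA is made during DNA synthesis. Of 27 tested DNA replication genes 0 were called by either test, against 0.21% of all tested genes by the dispersion test, and 9 had an unadjusted p under 0.05 with larger spread in cells, against 6.85%. The first were MCM5, a subunit of the replicative helicase, with a variation of 43.0% in cells and 15.5% in aliquots (adjusted p = 0.216), and PCNA, the sliding clamp of the polymerases, with 52.0% and 19% (adjusted p = 0.222). Their rho with the summed histone level was 0.15 and 0.20, and over the 27 genes it ran from -0.28 to 0.45, with 22 of 27 positive. SLBP, at -0.28, is in this list as well as in that of histone mRNA factors. Of 20 tested mitosis genes 0 were called by either test, again against 0.21% by the dispersion test. At an unadjusted p under 0.05 by that test 10 had larger spread in cells, again against 6.85% of all tested genes. MKI67, a protein of dividing cells, varied by 44.2% in cells and 12.5% in aliquots (adjusted p = 0.0502), and PLK1, a mitotic kinase, by 55.5% and 15.9% (adjusted p = 0.0617). Their rho was -0.16 and -0.24, and over the 20 genes it ran from -0.55 to 0.24, with 4 of 20 positive. Most of these coefficients are weak, and no test of a difference between the lists was made.

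**Figure D5:**
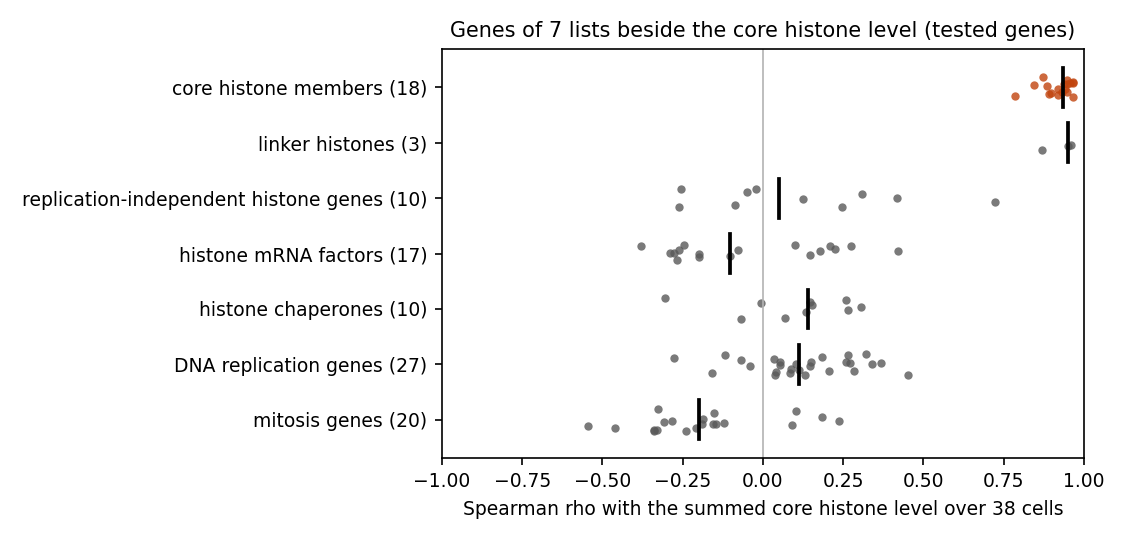
Spearman rho over the 38 cells (x axis) between the summed core histone level and each tested gene of 7 lists; each point is a gene, the black bar is the median of its list, and a core histone gene is set against the sum of the other 17. Core histone genes lie between 0.78 and 0.97 and the 3 linker genes between 0.87 and 0.96, while the other lists run from -0.55 to 0.72.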

How the data were processed

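The deposited files of 48 libraries each list 57820 Ensembl gene identifiers with whole-number counts of exonic and intronic reads and barcodes, not normalized. The authors used TopHat, HTSeq and build hg19, per the submitters' processing notes. The sources used here give neither versions nor the use of strand, so overlapping neighbours cannot be told apart. By GENCODE release 29, HIST1H2BD, HIST1H2BN, HIST1H3D, HIST1H3J, HIST2H2AB and HIST2H2BF overlap other genes. Genes were matched by identifier to GENCODE 29 and a gene name table. Stem-loops came from GENCODE 29 transcripts and promoters from RefSeq (GRCh38.p14).

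Exonic barcodes were scaled with TMM factors (edgeR 4.0.16, R 4.3.3). A mean of 10 CPM or more was asked of a gene, which left 9992. Each was tested with a negative-binomial model of 1 dispersion per group against a shared 1, by a likelihood ratio with the Cox-Reid adjustment over a grid of 60 values between 0.001 and 20 (numpy 2.4.6, scipy and numba 0.67.0, Python 3.11.15), two-sided, with Benjamini-Hochberg adjustment over all genes. It was tested on simulated data. Alternatives used limma 3.58.1, DESeq2 1.42.0 size factors, other filters, reads, thinning and left-out libraries. Library pairs differed by a chi-square of at least 2.09 per degree of freedom, so none was a duplicate. Replicate numbers came from the labels. P-values measure the spread between these libraries only.

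The genes and lists were chosen, and this test preferred to limma, with earlier results of these data known. Named by rule were the 3 genes of each family with the highest mean, the 3 largest and 3 smallest dispersion ratios, the 3 lowest coefficients, the 2 smallest p of each other list, and the 8 highest and 4 lowest coefficients with the summed level among non-histone genes with a symbol, without pseudogenes. Of the marker lists these were IRS4 (adjusted p = 0.029) and NEFM (adjusted p = 0.299) for HEK293T, and COL1A1 (adjusted p = 0.911) for blood and fibroblast cells.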

Additional observations from a re-analysis of the deposited data

Results flagged for a closer look

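Of 27 measures of the 10 aliquots (each of the 18 genes, their sum, and the sum and share of each family) 1 had an aliquot far from the others. H4 took 41.9% of core histone barcodes in aliquot 2, and at most 36.6% in the other 9. The same aliquot had the lowest summed level, 6043 CPM. By chance about 1 in 20 such measures is picked out.

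Introns of core histone genes were counted in 9 of the 18 genes, with 425 intronic barcodes over the 48 libraries, of which 319 were in cells and 106 in aliquots. They made up 0.68% of the genes' exonic and intronic barcodes in cells and 0.691% in aliquots, against 53.6% and 57.6% over all genes. All levels given are of exonic barcodes. The share was largest for HIST1H2BJ, at 9.05%.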

How the results depend on the processing

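For all 18 genes the direction of the spread was larger in cells under each of the 11 alternatives and without each library. The number of the 18 genes called was 5 with DESeq2 size factors, 7 with total exonic barcodes, 9 with exonic and intronic totals, 9 and 4 with filters of 50 and 1 CPM, 6 after thinning and 4 with the trend on cell number removed. It moved to 10 by exonic reads and to 0 by limma on deviations, with or without the replicate block. Numbers did not pair the libraries: the deviations of the 10 cells and aliquots of 1 number correlated at -0.0323 to 0.0375, and 1 of 10 cells correlated best with its own number. With the block 0 genes were called in either direction, as without it, on cells and aliquots 1 to 10. Leaving out 1 library gave 1 to 6 of the 18 genes. Over all genes the 21 calls of larger spread in cells became 55 with exonic and intronic totals, 35 with the filter of 50 CPM, 47 by reads, 0 by limma and 6 to 27 without 1 library. The 1 call of larger spread in aliquots became 0 with the filter of 1 CPM or thinning, 3 by reads or limma, 2 with the trend removed and 0 to 3 without 1 library. The causes were not tested. The log2 ratio of summed levels lay between -0.60 and -0.45 under 6 alternatives and between -0.63 and -0.55 without 1 library, and the median rho between 0.92 and 0.94, and between 0.93 and 0.94. The median coefficient of variation in cells moved to 95% by reads and lay between 67.8% and 75% under the other 5, and between 70.5% and 74.1% without 1 library. Depth limits HIST1H2AI, HIST1H2BJ, HIST1H2BL and HIST2H2AB, whose lowest cell held 1 barcode, and a spread in aliquots estimated from 10 libraries is imprecise.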
